A study of Mus musculus with 12 samples.

Results

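Potassium channel genes were taken as every row of the deposited count table whose symbol begins with Kcn, further letters and a digit. The rule used names and no measured value, and it found 94 of the 30740 gene symbols. Of these, 91 are protein-coding in GENCODE M21, and 3 are noncoding RNAs that lie antisense to a channel gene (Kcnd3os, Kcnmb4os2 and Kcnq1ot1). By textbook role, 65 encode pore-forming subunits, 10 encode modifier subunits of the Kcnf, Kcng, Kcns and Kcnv groups, and 16 encode auxiliary subunits of the Kcnab, Kcne, Kcnip and Kcnmb groups.

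The libraries came from ventral spinal cord of CB6F1/J mouse embryos at E12.5, sorted by flow cytometry on Hb9:GFP, a reporter driven by the promoter of the motor neuron gene Mnx1, also called Hb9. There were 5 libraries of GFP-positive Arhgap35 knockout cells and 5 of GFP-positive control cells, with 1 knockout and 1 control library of GFP-negative cells. The embryos of all 4 groups carried the reporter. Controls are labelled wild type, but the protocol describes them as littermates that were wild-type or p190+/-, p190 being another name for Arhgap35. Tissue of several embryos was combined before dissociation as the protocol reads, and the labels leave unsaid whether replicates were separate litters. The p-values below therefore describe how these libraries vary, which may be partly technical. The labels do not describe the knockout allele of Arhgap35.

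Total estimated counts per library ranged from 23699423 to 33807425. Arhgap35, the targeted gene, was at 88.2 to 105.6 counts-per-million (CPM, scaled by TMM) in knockout and 135 to 202 CPM in control GFP-positive libraries, with no overlap. The labels do not say which part is deleted, and reads from outside that part check nothing. All 9 motor neuron markers were higher in GFP-positive cells, with a summed level of 1822 to 2380 CPM, against 64.5 CPM in the knockout and 66.7 CPM in the control GFP-negative library. The labels call the GFP-negative cells motor neurons too, which these markers do not bear out. The GFP-negative libraries held the higher levels of all 8 neural progenitor markers (summed 405 to 516 CPM in GFP-positive libraries, against 1924 and 1755 CPM) and kept pan-neuronal markers (5798 to 6467 CPM, against 3568 and 3771 CPM). Skeletal muscle markers summed to at most 0.423 CPM in GFP-positive and were at 0 in both GFP-negative libraries. Fewer cells of a type and less RNA per cell cannot be told apart in sorted bulk samples such as these.

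Potassium channels let potassium leave or enter a cell down its gradient. They set the resting potential, end the action potential and limit how often a neuron fires. Voltage-gated subunits (Kcna to Kcnd, Kcnh and Kcnq) open on depolarization, inward rectifiers (Kcnj) and paired-pore leak channels (Kcnk) act near rest, and calcium- or sodium-activated channels (Kcnma, Kcnn, Kcnt) follow activity. Modifier subunits form no channel on their own but join Kcnb subunits, and auxiliary subunits change gating or trafficking.

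What the pore-forming members share in sequence is the selectivity filter, a short stretch that lines the pore and coordinates potassium. In the longest reading frame of each gene (GENCODE M21 transcripts, GRCm38), codons for a threonine or serine, a valine, isoleucine or leucine, a glycine, a tyrosine, phenylalanine or leucine, and a glycine were searched for. All 65 pore-forming genes held that signature, 54 of them 1 time and 11 of the 13 Kcnk genes 2 times. Each of the 10 modifier genes held it 1 time, and 0 of the 16 auxiliary genes did. The 27 coding bases around it are shown for members with the highest level in their pore-forming subfamily. These lines carry the stretch that the pore-forming and modifier members share, and capitals mark the 15 bases of the signature. The gene's position and strand on GRCm38 stand in parentheses.
Kcna6 (chr6:126708329-126740674, minus strand): atgaccACGGTAGGTTATGGGgacatg
Kcnd3 (chr3:105452330-105674002, plus strand): atgactACACTGGGATATGGAgacatg
Kcnh2 (chr5:24319589-24351604, minus strand): ctcaccAGCGTGGGCTTTGGCaatgtc
Kcnj11 (chr7:46093953-46100764, minus strand): caggtgACCATTGGTTTCGGCgggcgc
Kcnk9, first pore (chr15:72501089-72546340, minus strand): atcacaACTATCGGATATGGAcatgct
Kcnk9, second pore (chr15:72501089-72546340, minus strand): ttgactACTATAGGGTTCGGCgatttt
Kcnma1 (chr14:23289431-24014491, minus strand): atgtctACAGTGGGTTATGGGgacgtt
Kcnu1 (chr8:25849623-25937939, plus strand): atgtcaACTGTTGGCTTTGGGgacgtg
Kcnn1 (chr8:70842049-70863258, minus strand): ttcttgTCCATTGGCTATGGAgacatg
Kcnt1 (chr2:25863734-25918273, plus strand): ttctcaACTGTGGGCTTCGGTgatgtg

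Levels between genes were compared on the deposited TPM scale (transcripts-per-million), which corrects for length. Summed over the 94 genes, potassium channel transcripts reached 953 ± 38.9 TPM in GFP-positive libraries (SD, n = 10), against 499 TPM in the knockout and 520 TPM in the control GFP-negative library. Pore-forming genes made up 70.9% of the GFP-positive sum, auxiliary genes 27.5% and modifier genes 1.26%. Of the 94 genes, 62 averaged at least 1 TPM in GFP-positive cells, 21 at least 10 TPM, and 28 stayed below 1 TPM in both sorts.

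Kcnip1, which encodes a calcium-binding partner of Kcnd channels, stood at 82.1 ± 9.13 TPM in GFP-positive libraries (SD, n = 10). It overlapped in range with Kcnh2, the ERG channel of slow repolarization (72.4 ± 5.83 TPM), and Kcnh2 lay wholly above Kcnab1, a cytoplasmic beta subunit of Kcna channels (56.8 ± 5.00 TPM). Below these, Kcnmb4, a beta subunit of the BK channel, had 48.5 ± 3.86 TPM and the sodium-activated Kcnt1 35.1 ± 4.75 TPM. The ranges of Kcnab1 and Kcnmb4 overlapped, as did those of Kcnmb4 and Kcnt1. The Kcnd partner Kcnip4 (33.3 ± 5.95 TPM), Kcnh4 (30.0 ± 2.82 TPM) and the SK channel Kcnn1 (30.0 ± 6.18 TPM) overlapped each other in range.

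**Figure D1:**
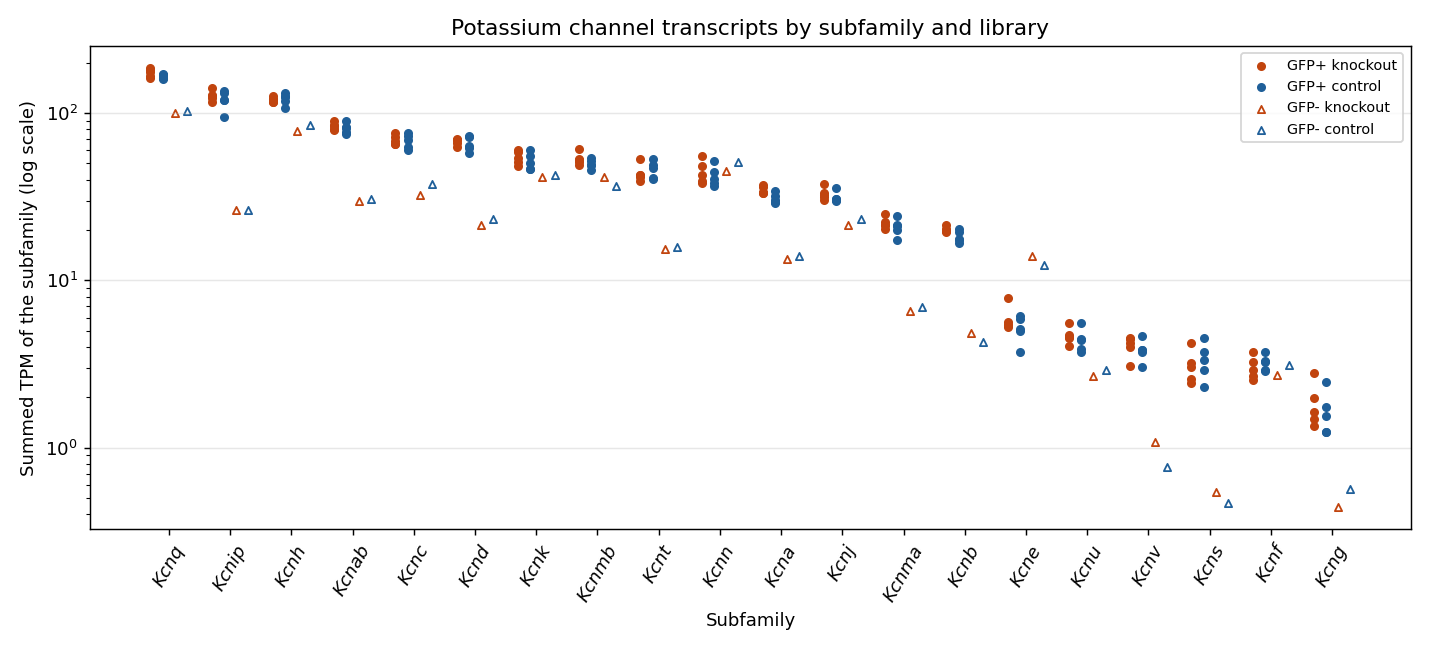
Summed TPM (log scale) of each potassium channel subfamily in every library, with GFP-positive knockout, GFP-positive control, GFP-negative knockout and GFP-negative control libraries from left to right within a subfamily; each symbol is 1 library. Kcnip transcripts reached 94.2 to 142 TPM in GFP-positive libraries, against 26.3 and 26.3 TPM in GFP-negative ones, and Kcne was the only subfamily of the 20 whose GFP-positive libraries all lay below both GFP-negative ones (3.74 to 7.87 TPM, against 14.0 and 12.3 TPM).

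The comparison of GFP-positive with GFP-negative cells asks which channels differ between sorted motor neurons and the mixed remainder of the ventral cord. Pan-neuronal markers differed too. Stmn2 (2.84-fold), Snap25 (2.61-fold), Tubb3 (1.60-fold) and Elavl4 (1.105-fold) were called higher in GFP-positive cells, and Elavl3 was not called. A rise of such a size therefore does not by itself set motor neurons apart from other neurons. Most potassium channel genes that could be tested stood higher in GFP-positive cells. Kcnab1, Kcnip4, Kcna5 and Kcnt2 rose more than 8-fold, and Kcnk5, Kcnj10 and Kcnj8 fell more than 8-fold. Kcns2 and Kcng2 also had fitted rises above 8-fold, but they reached the count filter in GFP-positive libraries only. In the other direction, Kcnk5 and Kcnj8 had few counts in GFP-positive libraries (2 to 21 and 2 to 14). Neither passed the filter in the fit of GFP-positive libraries alone, so their direction was also partly fixed by the filter. In all, 77 of the 94 genes passed the filter on low counts, and edgeR's quasi-likelihood test called 47 higher (adjusted p under 0.05; 30.1% of all 19763 genes tested were called higher) and 9 lower (31.8% of all genes). The remaining 21 were not called, and 17 were too low to test.

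As shares of the genes tested, 61.0% of the potassium channel genes were called higher and 11.7% lower. The median log2 fold change was 0.92 over the 77 genes and 0.02 over all genes. Of the 77, 11 reached the filter in GFP-positive libraries only, so their direction was partly fixed by the filter. Of these, 5 were called higher (Kcne4, Kcng2, Kcnk4, Kcns1 and Kcns2). Among the 66 that reached it in at least 1 library of each sort, 42 were called higher and 9 lower. The 9 include Kcnk5 and Kcnj8, whose direction was also partly fixed by the filter, as given above. Rises of more than 2-fold numbered 34 (12.4% of all genes), of more than 4-fold 15 (4.45%) and of more than 8-fold 6 (1.74%). These counts include the 5 genes just named: Kcne4 above 2-fold, Kcnk4 and Kcns1 above 4-fold, and Kcng2 and Kcns2 above 8-fold. Falls of more than 2-fold numbered 5 (10.5% of all genes), of more than 4-fold 3 (5.11%) and of more than 8-fold 3 (2.72%). Kcnk5 and Kcnj8 are counted at each of these steps. The 10 GFP-positive libraries lay wholly above both GFP-negative libraries for 46 genes (29.1% of all genes) and wholly below for 9 (31.7%). The 46 include the same 5 genes, and the 9 include Kcnk5 and Kcnj8. Only 2 GFP-negative libraries, 1 of each genotype, stand behind this comparison.

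**Figure D2:**
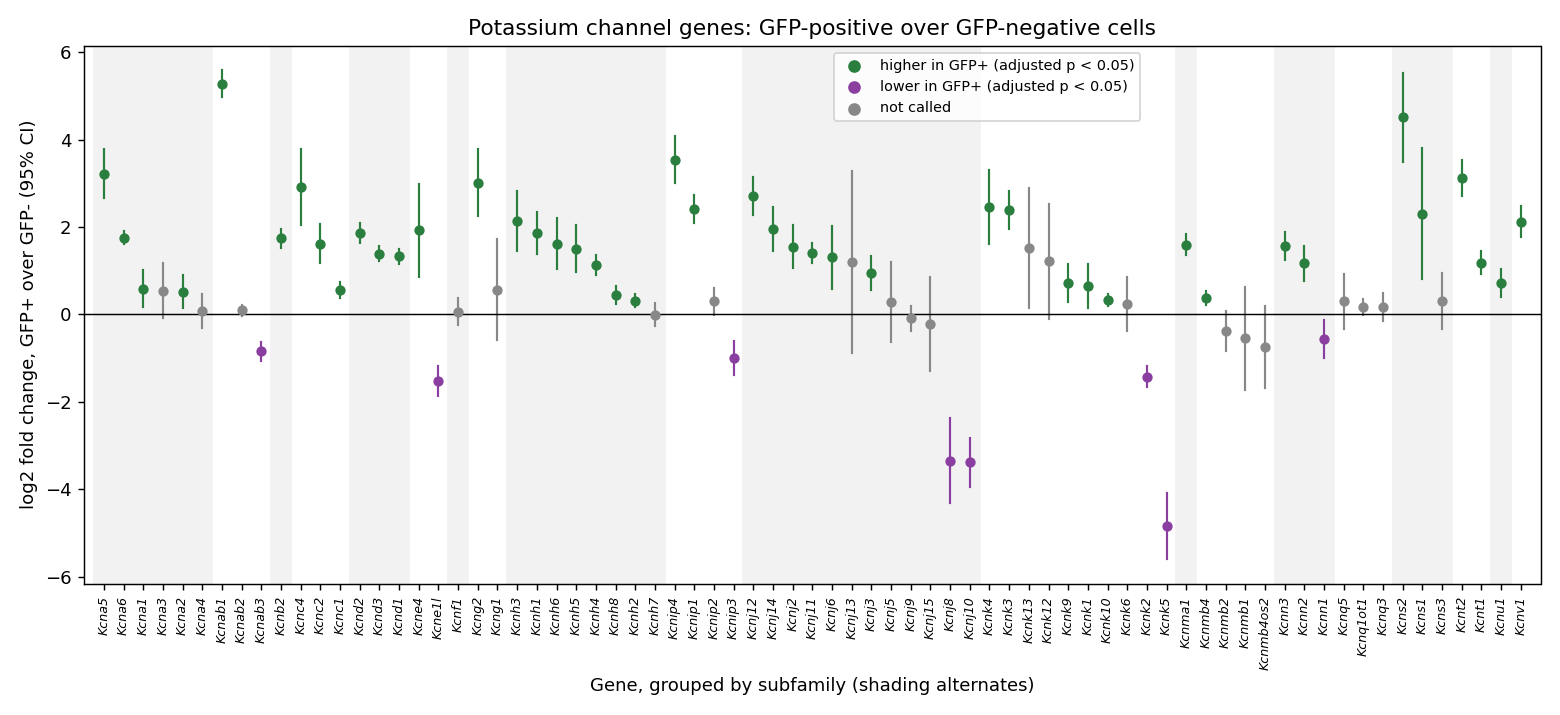
Log2 fold change of GFP-positive over GFP-negative cells (12 libraries, edgeR) with its 95% confidence interval for 73 of the 77 tested potassium channel genes, grouped by subfamily; green marks those called higher, purple those called lower and grey those not called. Kcnab1 is the highest point at 5.28 and Kcnk5 the lowest at -4.84.

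Kv1 genes (Kcna) encode low-threshold delayed rectifiers and A-type subunits of axons. Of their 6 tested members 4 were called higher and 0 lower (30.1% and 31.8% of all genes). Kcna5 stood at 4.21, 5.05 and 7.72 CPM (lowest, median and highest of 10) in GFP-positive libraries, against 0.548 CPM in the knockout and 0.576 CPM in the control GFP-negative library. That was a 9.32-fold rise (log2 fold change 3.22, SE 0.262, adjusted p = 1.48e-07), with no overlap between the sorts. Kcna6, the most abundant Kv1 gene per length at 18.2 ± 1.10 TPM (SD, n = 10), rose 3.38-fold (41.7 to 49.6 CPM in GFP-positive libraries, against 13.2 and 13.3 CPM). Exons of Kcna6 share 39.6% of their bases with the antisense gene Gm26673, whose reads an unstranded kit cannot tell apart. Kcna1, a Kv1 subunit known from episodic ataxia, rose 1.51-fold (adjusted p = 0.0157), a call that ended without the knockout GFP-negative library (adjusted p = 0.284). Kcna4, an A-type subunit, had a log2 fold change of 0.08 (95% confidence interval -0.31 to 0.48).

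The Kv1 beta subunits (Kcnab) were split in direction. Kcnab1, which gives Kv1 channels fast inactivation, stood at 70.2, 78.1 and 90.3 CPM (lowest, median and highest) in GFP-positive libraries, against 2.19 CPM in the knockout and 1.86 CPM in the control GFP-negative library. With a 38.9-fold rise (log2 fold change 5.28, SE 0.140, adjusted p = 1.67e-11) it had the largest fold of the 77 genes. It made up 68.9% of Kcnab TPM in GFP-positive libraries, against 4.81% and 4.72% in the GFP-negative ones. Kcnab3 fell to 7.28 CPM at the median of the GFP-positive libraries, against 12.7 and 13.7 CPM (1.80-fold lower, adjusted p = 9.13e-06). Kcnab2, which also binds Kv1 channels, was not called (log2 fold change 0.09, 95% confidence interval -0.03 to 0.21).

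All tested Kv2, Kv3 and Kv4 genes were called higher: 2 of 2 Kcnb, 4 of 4 Kcnc and 3 of 3 coding Kcnd members (30.1% of all genes). Kcnb2, a delayed rectifier, stood at 15.9, 18.2 and 21.8 CPM (lowest, median and highest) in GFP-positive libraries, against 5.55 CPM in the knockout and 5.32 CPM in the control GFP-negative library, a 3.35-fold rise (adjusted p = 7.41e-09). Of the Kv3 genes, which serve fast repolarization, Kcnc4 rose 7.51-fold, Kcnc2 3.07-fold and Kcnc1 1.47-fold. The rises in Kv3 genes were thus unequal in size. Kcnd2 rose 3.64-fold, Kcnd3 2.63-fold and Kcnd1 2.52-fold. These encode the pore of the subthreshold A-type current.

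Kcnip genes encode the calcium-binding partners of that A-type pore, and 2 of the 4 were called higher and 1 lower (30.1% and 31.8% of all genes). Kcnip1 stood at 63.5, 83.5 and 95.9 CPM in GFP-positive libraries (lowest, median and highest), against 14.9 CPM in the knockout and 15.7 CPM in the control GFP-negative library, a 5.36-fold rise. Kcnip4 ranged from 20.5 to 39.9 CPM around a median of 31.6 CPM, against 2.85 and 2.51 CPM, an 11.7-fold rise (adjusted p = 1.06e-07). Both were clear of the GFP-negative libraries in every GFP-positive one. Kcnip3, also known as the transcriptional repressor DREAM, fell 1.99-fold (adjusted p = 0.000311).

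Modifier genes were low, and 4 of the 7 tested were called higher. Kcng1, Kcng2, Kcns1, Kcns2 and Kcns3 reached the count filter in GFP-positive libraries only, which partly fixed their direction, so the count over this group supports nothing. Kcng1 and Kcns3 were not called. Kcns2 stood at 3.54, 4.35 and 6.85 CPM in GFP-positive libraries (lowest, median and highest), against 0.0730 CPM in the knockout and 0.339 CPM in the control GFP-negative library. The fitted rise was 22.7-fold (SE 0.468 on the log2 scale, adjusted p = 1.92e-06), and it rests on 2 and 10 counts in the GFP-negative libraries. Kcng2 rose 8.05-fold on 7 and 4 GFP-negative counts, Kcnv1 4.36-fold, and Kcns1, at a median of 0.497 CPM in GFP-positive cells, 4.94-fold (adjusted p = 0.0102). The call for Kcns1 ended with the replicate block (adjusted p = 0.119) and without the control GFP-negative library (adjusted p = 0.126). Kcnf1 was not called (log2 fold change 0.07, 95% confidence interval -0.24 to 0.38).

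In the Kcnh group 7 of 8 genes were called higher and 0 lower (30.1% and 31.8% of all genes). Kcnh2, at 69.5 and 80.2 CPM in the knockout and control GFP-negative libraries, stood at 85.1 to 106 CPM in GFP-positive ones, a rise of 1.24-fold (adjusted p = 0.00106) that was not called without the knockout GFP-negative library (adjusted p = 0.0611). The other strongly expressed member, Kcnh4, a channel of the ELK type, rose 2.19-fold. At lower levels Kcnh3 rose 4.41-fold and Kcnh1, the EAG channel, 3.62-fold. Kcnh7 did not pass (log2 fold change -0.00, 95% confidence interval -0.27 to 0.26).

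Of the 5 tested Kcnq members, 1 was called higher and 1 lower (30.1% and 31.8% of all genes). Kcnq3, a subunit of the M-current channel that damps repetitive firing, ranged from 33.2 to 54.7 CPM in GFP-positive libraries, which includes the 38.3 and 38.6 CPM of the GFP-negative ones. It was not called (log2 fold change 0.16, 95% confidence interval -0.15 to 0.48). The antisense RNA Kcnq1ot1 was not called (log2 fold change 0.18), and Kcnq1 had at most 3 counts in any library.

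**Figure D3:**
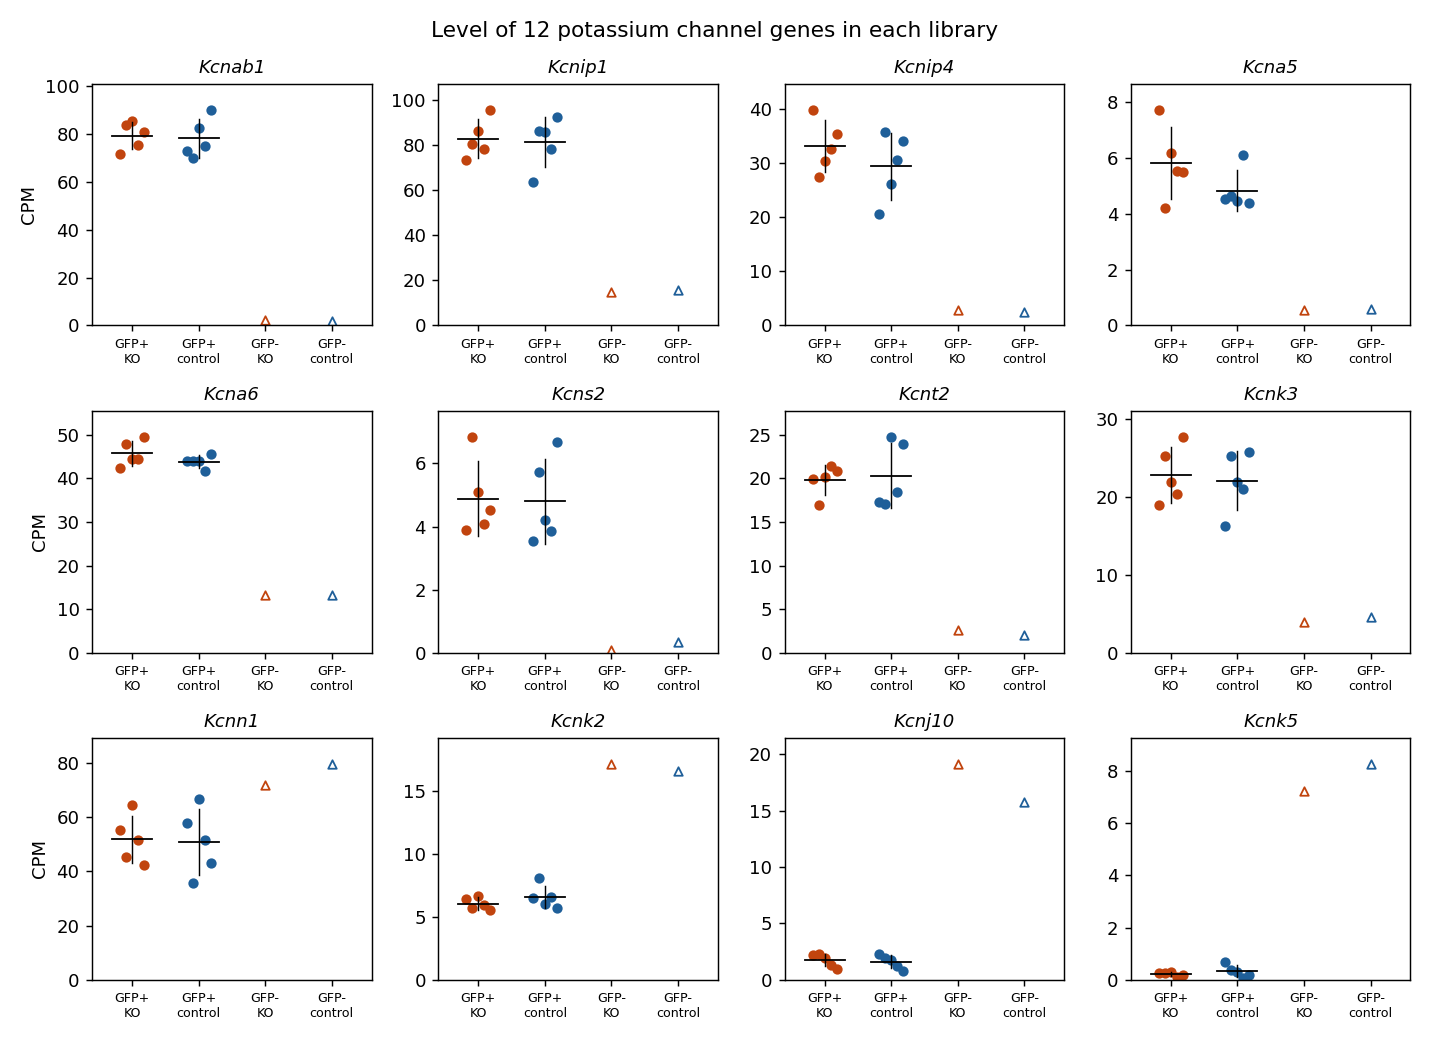
CPM of 12 potassium channel genes in each library, with GFP-positive knockout, GFP-positive control, GFP-negative knockout and GFP-negative control from left to right; horizontal and vertical black lines are the mean and SD of 5 libraries, and every axis starts at 0. In the upper 8 panels all GFP-positive libraries lie above both GFP-negative ones, and in the lower 4 all lie below.

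Among calcium- or sodium-activated channels (Kcnma, Kcnt, Kcnn) and the related Kcnu1, each tested pore-forming gene was called higher except Kcnn1. Of all genes, 30.1% were called higher and 31.8% lower. Kcnn4 was not tested. Kcnma1, the pore of the BK channel, rose 3.02-fold (39.7 to 55.2 CPM in GFP-positive libraries, against 15.6 and 16.3 CPM). Kcnmb4, its neuronal beta subunit, rose 1.30-fold, while the beta subunits Kcnmb1 (log2 fold change -0.55) and Kcnmb2 (-0.38) were not called and Kcnmb3 was not tested. Exons of Kcnmb4 share 20.8% of their bases with the antisense RNA Kcnmb4os2, which stood at 0.169 to 0.820 CPM in GFP-positive cells. They share 10.7% with the antisense gene Kcnmb4os1, whose level is not given. Kcnu1, a relative of Kcnma1 known from sperm, rose 1.64-fold at a median of 2.44 CPM. Kcnt2 rose 8.69-fold (17.0 to 24.8 CPM, against 2.59 and 2.03 CPM) and Kcnt1 2.28-fold. Of the SK genes, which underlie the afterhyperpolarization, Kcnn3 rose 2.94-fold and Kcnn2 2.25-fold.

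Kcnn1 was the exception. It stood at 35.8, 51.6 and 66.7 CPM in GFP-positive libraries (lowest, median and highest), against 71.9 CPM in the knockout and 79.6 CPM in the control GFP-negative library. The fall was 1.47-fold (adjusted p = 0.0274), and the call ended without the knockout GFP-negative library (adjusted p = 0.0858) or the control one (adjusted p = 0.203). It still supplied 68.5% of SK TPM in GFP-positive libraries, against 88.2% and 88.7% in the GFP-negative ones.

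Inward rectifiers (Kcnj) divided into 6 genes called higher and 2 called lower among 12 tested (30.1% and 31.8% of all genes). Of the 12, Kcnj13 reached the count filter in GFP-positive libraries only and was not called. Kcnj12, a strong rectifier, rose 6.57-fold, Kcnj14 3.89-fold, Kcnj2 2.93-fold and Kcnj11, the pore of the ATP-sensitive channel, 2.65-fold. Kcnj10, the glial channel Kir4.1, stood at 0.804, 1.82 and 2.28 CPM in GFP-positive libraries (lowest, median and highest), against 19.1 CPM in the knockout and 15.7 CPM in the control GFP-negative library, which is 10.4-fold lower (adjusted p = 1.36e-07). Kcnj8, an ATP-sensitive channel of mural cells, stood at 0.0816, 0.163 and 0.578 CPM, against 2.26 and 2.34 CPM (10.2-fold lower, adjusted p = 1.83e-05). Every GFP-positive library was below both GFP-negative libraries for these genes.

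Kcnj8 was highest in knockout replicate 2 (0.578 CPM) and control replicate 2 (0.467 CPM). The 4 pericyte markers summed to 14.8 to 28.3 CPM in GFP-positive libraries, against 31.2 and 34.5 CPM in GFP-negative ones. Most of that sum was Rgs5, at 17.3 ± 3.78 CPM in GFP-positive libraries (SD, n = 10), against 16.4 and 18.03 CPM, while the other 3 (Pdgfrb, Cspg4 and Anpep) were called lower. The sum was highest in knockout replicate 2 (28.3 CPM), where the endothelial (12.3 CPM), mesenchyme (10.5 CPM) and erythroid (27.8 CPM) sums also peaked among GFP-positive libraries. It was next highest in knockout replicate 3 (24.5 CPM), which had the lowest Kcnj8 value (0.0816 CPM). The part of such cells in the level of Kcnj8 was not tested.

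Paired-pore leak channels (Kcnk) had 5 genes called higher and 2 lower among 10 tested (30.1% and 31.8% of all genes). Of the 10, Kcnk12 and Kcnk13 reached the count filter in GFP-positive libraries only and were not called. Kcnk3, the acid-sensitive TASK channel of motor neurons, stood at 16.3, 21.9 and 27.8 CPM in GFP-positive libraries (lowest, median and highest), against 3.98 CPM in the knockout and 4.57 CPM in the control GFP-negative library, a 5.24-fold rise (adjusted p = 4.38e-07). Kcnk4, of the TRAAK type, had a fitted rise of 5.5-fold at a median of 0.818 CPM, and it reached the count filter in GFP-positive libraries only. Its exons share 13.1% of their bases with Catsperz, a coding gene on the same strand. Smaller rises were called for Kcnk10, of the TREK type (1.26-fold), and for Kcnk9, also a TASK channel (1.64-fold, adjusted p = 0.00731). The Kcnk9 call ended without the knockout GFP-negative library (adjusted p = 0.082) or the control one (adjusted p = 0.0529).

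In the other direction, Kcnk5, of the alkaline-activated TASK type, stood at 0.0836, 0.262 and 0.695 CPM in GFP-positive libraries, against 7.23 CPM in the knockout and 8.27 CPM in the control GFP-negative library (28.7-fold lower, adjusted p = 5.75e-08). Kcnk2, which encodes the mechanosensitive TREK channel, fell 2.67-fold to a median of 6.25 CPM, against 17.2 and 16.6 CPM. Kcnk2 thus gave 8.19% of Kcnk TPM in GFP-positive libraries, against 27.5% and 26.2% in GFP-negative ones, and Kcnk3 gave 25.4%, against 5.61% and 6.33%. Control replicate 1 had the highest Kcnk5 value (0.695 CPM, 21 counts) and, among GFP-positive libraries, the highest neural progenitor (516 CPM), dorsal interneuron (34.6 CPM) and sensory neuron and neural crest (43.6 CPM) sums. Knockout replicates 3 and 2 had similar progenitor sums (511.5 and 500.6 CPM) with Kcnk5 at 0.286 and 0.248 CPM. Most of the progenitor sum was Vim, which averaged 355 CPM in GFP-positive libraries (SD 22.3), followed by Nes at 64.3 CPM (SD 14.4). Similar sums therefore need not mean similar numbers of progenitors. The part of progenitor, dorsal interneuron, sensory neuron or neural crest cells in the Kcnk5 value was not tested.

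Among the small Kcne subunits, Kcne1l fell 2.87-fold (2.22 to 4.18 CPM in GFP-positive libraries, against 8.73 and 7.76 CPM; adjusted p = 1.43e-06). Kcne4, at 0.293 to 1.14 CPM, against 0.219 and 0.102 CPM, rose 3.80-fold (adjusted p = 0.00383), a call that ended without the control GFP-negative library (adjusted p = 0.056), and it reached the count filter in GFP-positive libraries only. The other 3 Kcne genes were too low to test.

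Promoters are shown for the 2 called rises and the 2 called falls with the largest folds among members that have 1 entry in the RefSeq promoter table (54 of 94 genes have 1 entry, 69 have at least 1). Each runs from 250 bases before to 50 bases after the start on GRCm38.p6, 5′ to 3′ on the gene's strand, and capitals mark matches on either strand to GGGCGG (the GC box) or CAGCTG (an E-box). They are chr6:126535506-126535805 on the minus strand for Kcna5, chr1:140245468-140245767 on the plus strand for Kcnt2, chr14:20181733-20182032 on the minus strand for Kcnk5 and chr1:172340960-172341259 on the plus strand for Kcnj10.
Kcna5: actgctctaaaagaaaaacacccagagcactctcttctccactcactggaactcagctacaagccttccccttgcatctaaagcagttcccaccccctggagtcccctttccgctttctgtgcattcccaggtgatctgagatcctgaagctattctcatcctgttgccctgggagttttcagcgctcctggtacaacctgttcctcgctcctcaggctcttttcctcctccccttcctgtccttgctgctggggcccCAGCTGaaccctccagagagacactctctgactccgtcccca
Kcnt2: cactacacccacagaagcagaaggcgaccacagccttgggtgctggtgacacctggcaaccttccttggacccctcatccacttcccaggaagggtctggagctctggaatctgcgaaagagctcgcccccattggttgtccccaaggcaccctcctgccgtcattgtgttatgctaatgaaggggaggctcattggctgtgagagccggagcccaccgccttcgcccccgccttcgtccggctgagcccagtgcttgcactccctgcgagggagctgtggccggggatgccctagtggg
Kcnk5: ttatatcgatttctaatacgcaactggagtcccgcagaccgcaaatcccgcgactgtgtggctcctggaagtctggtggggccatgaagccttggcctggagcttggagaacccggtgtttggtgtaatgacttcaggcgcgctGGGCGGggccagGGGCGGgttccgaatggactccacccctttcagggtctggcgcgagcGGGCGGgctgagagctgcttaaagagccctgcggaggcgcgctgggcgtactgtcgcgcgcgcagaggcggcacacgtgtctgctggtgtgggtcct
Kcnj10: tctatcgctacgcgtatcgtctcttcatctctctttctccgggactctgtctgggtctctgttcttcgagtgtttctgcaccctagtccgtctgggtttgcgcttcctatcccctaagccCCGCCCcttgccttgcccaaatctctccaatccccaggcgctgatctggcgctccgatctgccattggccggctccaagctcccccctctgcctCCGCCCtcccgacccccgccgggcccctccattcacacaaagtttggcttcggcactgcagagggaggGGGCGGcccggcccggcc
The promoters of the fallen genes Kcnk5 and Kcnj10 held 3 GC boxes each and 26 and 21 CG dinucleotides. Those of the risen genes Kcna5 and Kcnt2 held 0 GC boxes and 4 and 12 CG dinucleotides. Over all promoter entries of called members, 21 of 40 promoters of genes called higher and 7 of 13 of genes called lower held a GC box, against 35.7% of all 32851 promoters in the table. CAGCTG was in 13 of the 40 and 6 of the 13, against 16.3% of all. TAATTA, a core letter string of homeodomain binding, was in 0 of the 94 promoter entries of the family, against 5.29% of all. The motifs do not overlap each other in these windows, and a match describes letters only.

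A list of 32 genes whose proteins work beside these channels (auxiliary and clustering proteins, HCN channels, the sodium-potassium pump, chloride cotransporters and the repressor Rest) was set beside the family, and 17 of 30 tested were called higher (30.1% of all genes) and 9 lower (31.8%). Abcc8, the sulfonylurea receptor that pairs with Kcnj11, rose 9.08-fold to 61.6 ± 4.84 CPM in GFP-positive cells (SD, n = 10), against 7.16 CPM in the knockout and 6.40 CPM in the control GFP-negative library. Hcn3, a hyperpolarization-activated channel, rose 2.09-fold. Kcnj11 and Abcc8, the pore and the receptor of that channel, were thus both called higher. Rest, which represses neuronal genes, fell 2.98-fold to 7.31 ± 1.03 CPM (SD, n = 10), against 22.4 and 21.3 CPM. The adhesion molecule Cntn2 fell 2.80-fold and the Kcnb partner Amigo1 1.37-fold. Abcc9, the receptor that pairs with Kcnj8, was named after its values were seen and fell 5.81-fold.

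Knockout and control GFP-positive libraries were compared to see whether the family differs when Arhgap35 is lost. No potassium channel gene was called in either direction among 68 tested (0.00572% of all 17487 genes were called higher and 0.0286% lower). At an unadjusted p under 0.05 stood 2 of the 68 in edgeR's test, which is 2.94%, against 2.14% of all genes tested. DESeq2 called 0 and limma on log2 TPM 0. With the replicate number as a block edgeR called 0, with 4 genes at an unadjusted p under 0.05. The share of all genes at that level under the block is not given here, so the 4 cannot be weighed. Groups did not separate for any of the 68, against 0.223% of all genes wholly higher and 0.315% wholly lower.

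The limits on a difference were narrow for well-expressed members. The 95% confidence interval lay within 1.5-fold of no change for 55 of the 68 and within 2-fold for 65. Among the 36 genes at 8 CPM or more, 35 lay within 1.5-fold, and their log2 fold changes ran from -0.07 to 0.17. Kcnab1 (log2 fold change 0.02, 95% confidence interval -0.14 to 0.18) and Kcnk3 (0.05, -0.25 to 0.36) were among the genes that rose most with GFP. Summed over the family, the TPM level was 970 ± 32.7 in knockout and 936 ± 39.8 in control GFP-positive libraries (SD, n = 5 each). Fold changes above 0 were found for 48 of the 68 (70.6%, against 48.9% of all genes), and the median log2 fold change was 0.03 for the 68, against -0.00 for all genes.

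Among the genes with the smallest p, 2 are given in full. Kcnj5, which encodes a G-protein-coupled rectifier, stood at 0.276, 0.495, 0.408, 0.237 and 0.615 CPM in knockout libraries, against 0.497, 1.06, 0.713, 0.460 and 0.593 CPM in controls. The groups overlap at 0.460 to 0.615 CPM, and 1 of 5 knockout libraries exceeded its control of the same number. Its log2 fold change was -0.70 (SE 0.323, unadjusted p = 0.0497, edgeR adjusted p = 0.99993), from 7.46 to 24.9 counts per library. Kcna1 stood at 5.63, 8.99, 6.12, 5.99 and 7.18 CPM in knockout libraries, against 5.23, 6.75, 4.78, 5.10 and 6.05 CPM in controls. All 5 knockout libraries exceeded the control of the same number, although the groups overlap. Its log2 fold change was 0.28 (SE 0.144, unadjusted p = 0.0744; 0.00780 with the replicate block), with an edgeR adjusted p of 0.99993, or 0.788 with the block.

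**Figure D4:**
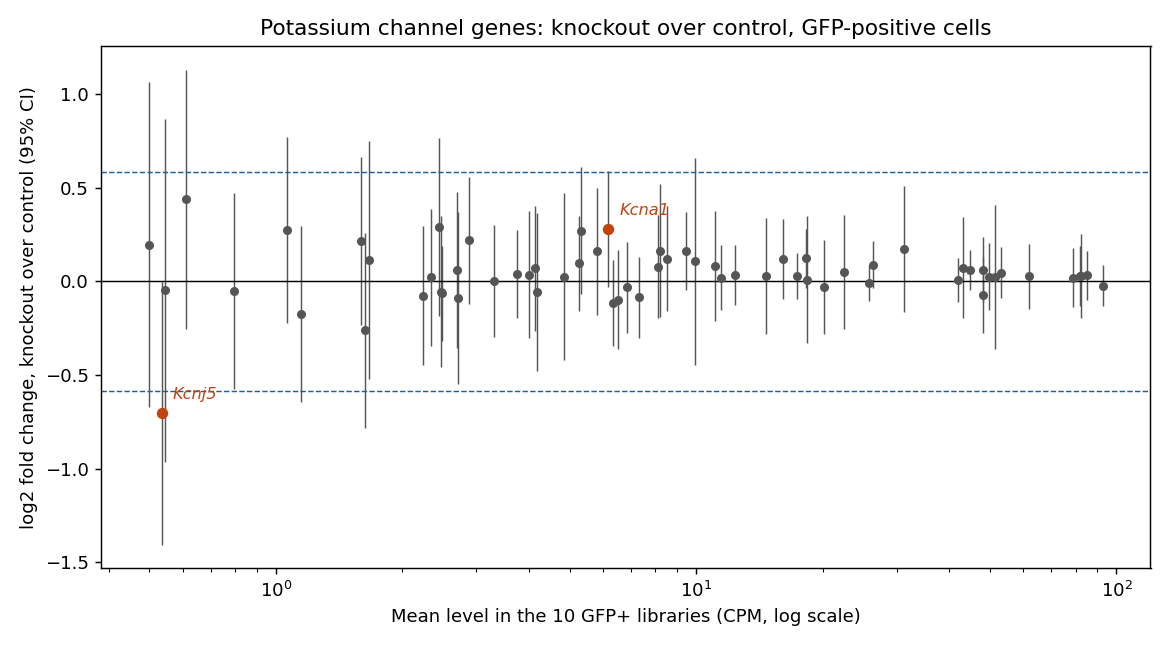
Log2 fold change of knockout over control GFP-positive cells (5 against 5 libraries, edgeR) with its 95% confidence interval, against the mean level in CPM (log scale), for 64 of the 68 tested potassium channel genes; dashed lines mark 1.5-fold. Intervals narrow with level, and the named genes Kcnj5 and Kcna1 (orange) do not pass the adjusted threshold.

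Of the 94 genes, 10 lie on chromosome 7, which also carries Arhgap35. The nearest was Kcnn4, an intermediate-conductance channel, 7.76 Mb away (chr7:24370263-24386690), which had 0 to 7.88 counts per library and was not tested. Kcnk6, 12.6 Mb away (chr7:29221926-29232515), had a log2 fold change of 0.27 (unadjusted p = 0.253). The tested Kcnj14, Kcnj11 and Kcnc1, 29.2 to 29.8 Mb away, ranged from 0.00 to 0.05.

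Whether the genotype acts differently in GFP-negative cells was tested as an interaction, with each lone GFP-negative library assumed to vary like the replicated groups. No member was called among 77 tested (0.0101% of all genes were called higher and 0.0152% lower); edgeR gave 2 with an unadjusted p under 0.05 (1.78% of all genes) and DESeq2 called 0, with 1 such gene. Those with the smallest p were Kcnj13 (unadjusted p = 0.0322), Kcns2 (0.0395) and Kcnj14 (0.0587), each with an adjusted p of 0.99997. Kcnj13, an inward rectifier of epithelia, had 0 counts in the knockout and 3.65 in the control GFP-negative library, so no fold is given; 49.1% of its exon bases are shared with Gigyf2. Kcns2 rested on 2 counts in the knockout and 10 in the control GFP-negative library, with 92 to 166 in GFP-positive ones. Kcnj14 stood at 1.10 CPM in the knockout and 0.610 CPM in the control GFP-negative library, with an interaction of 0.84 on the log2 scale (95% confidence interval -0.02 to 1.69).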

How the data were processed

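The authors deposited estimated counts per gene symbol (expected counts, not normalized between libraries, 39.2% of them whole numbers) and TPM values. The submitters' processing notes name kallisto and mm10; its version and how transcripts were summed to symbols are not stated. The deposited TPM columns sum to 974800 to 1018240, so a further step was made that no label describes. Per the labels' protocols, the TruSeq v2 kit, which does not keep strand, was read as 50-base single ends.

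Columns were matched to samples by title, with 0 unmatched. After rounding and filterByExpr, TMM-scaled counts went into edgeR's quasi-likelihood test with robust estimation (edgeR 4.0.16, R 4.3.3). P-values were adjusted by Benjamini-Hochberg over every gene of the fit, and 0.05 was the threshold. The genotype fit used the 10 GFP-positive libraries, the sort fit all 12 with genotype as a covariate, and the interaction came from 4 group means. Standard errors were derived from the fold change and the F statistic. CPM levels use TMM factors over 12 libraries; 3 counts correspond to 0.0890 to 0.127 CPM. DESeq2 1.42.0 and limma 3.58.1 (log2 of TPM plus 1 or 0.1, mean TPM of at least 1) were alternatives. The code was tested on simulated data.

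No library pair of a group agreed within sampling noise: the lowest chi-square was 8.59 per degree of freedom. Residuals of same-numbered knockout and control GFP-positive libraries correlated at r of 0.209 to 0.505, against at most 0.189 for other pairs. A fit with the replicate block was therefore run as an alternative. The main fits hold no block, and values come from them unless the block is named. No label says what a number marks.

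Members and lists were chosen with earlier results of these data known. Genes are named by rule: per subfamily the highest mean TPM and up to 3 called members per direction by p, the 10 highest TPM, and the 3 smallest p for genotype and interaction; of the channel partners, up to 3 called per direction by p. Kcna2, Kcna4, Kcnab2, Kcnc4, Kcng1, Kcnh7, Kcnh8, Kcnj2, Kcnj3, Kcnj6, Kcnk1, Kcnk6, Kcnk12, Kcnk13, Kcnmb1, Kcnmb2, Kcnmb3, Kcnmb4os2, Kcnn4, Kcnq1, Kcnq1ot1, Kcnq3 and Kcns3 were chosen after values were seen. GENCODE M21 and RefSeq (GRCm38) gave positions for all 94 members; members on chromosome 18 were left out of the sequences shown. Some genes that the rule names are not reported here; the counts over the family include them.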

Additional observations from a re-analysis of the deposited data

Results flagged for a closer look

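Among the 50 potassium channel genes named by the rule, 100 groups of 5 GFP-positive libraries were examined, and in 6 of them 1 library stood apart from its group by Dixon's criterion; chance gives about 1 in 20. In knockout libraries, Kcnb2 stood at 21.8 CPM in replicate 3 (others 17.8 to 18.7 CPM), Kcne4 at 1.14 CPM in replicate 1 (others 0.571 to 0.650 CPM) and Kcnt1 at 58.0 CPM in replicate 5 (others 43.5 to 44.8 CPM). In control libraries, Kcna5 stood at 6.10 CPM in replicate 4 (others 4.36 to 4.63 CPM), Kcnh3 at 3.85 CPM in replicate 4 (others 2.38 to 2.79 CPM) and Kcnmb4 at 28.4 CPM in replicate 5 (others 24.5 to 24.9 CPM). No gene was flagged in both genotypes.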

How the results depend on the processing

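The counts of potassium channel genes called between the sorts kept within 1.5 times of their value under each alternative run, and none of the 56 genes called changed sign. The genotype log2 fold change of Kcnj14, near 0.00, was -0.01 with the replicate block. Of the 56 genes called between the sorts, all kept the call under DESeq2 size factors, DESeq2's test and each left-out GFP-positive library. Without a filter 55 did, with the replicate block 53 (Kcna2, Kcnj6 and Kcns1 lost it), and on log2 TPM 50, with 5 of the others not tested. Without the knockout GFP-negative library 49 kept it, without the control one 50, in control libraries alone 46 and in knockout libraries alone 51. Beyond those already named, further genes missed the threshold in fits that hold 1 GFP-negative library. These were Kcnu1 and Kcnj3 in control libraries alone, Kcnh8 in knockout libraries alone, and Kcnk1 in every such fit. The log2 fold change of Kcnu1 in control libraries alone was 0.69. For genotype and interaction 0 members were called under every alternative run, the replicate block included. Dropping the filter moved the median of all genes between the sorts to 0.14 on the log2 scale, against 0.02. The Arhgap35 log2 fold change was -0.77 to -0.91 under every alternative (-0.83 as reported). Its adjusted p was 0.0240, 6.15e-13 with DESeq2's test, 0.162 with the block, and 0.0562 to 0.141 when any 1 library but control replicate 5 was left out (0.000759 without that one). The GFP-negative state rests on 2 libraries, which limits each call between the sorts, and members below about 1 CPM have wide intervals.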

Other observations

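Some members varied more between replicate numbers than between genotypes. Kcnn1 stood at 55.3, 45.4, 64.5, 51.7 and 42.3 CPM in knockout replicates 1 to 5, against 57.7, 35.8, 66.7, 51.5 and 42.9 CPM in the controls of the same numbers. The libraries numbered 3 were the highest in both genotypes. Kcnj10 stood at 2.21, 2.27, 1.92, 1.34 and 0.991 CPM in knockout replicates, against 2.29, 1.91, 1.72, 1.25 and 0.804 CPM in controls, and the libraries numbered 5 were the lowest in both. What the numbers share was not tested.

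At the low end of the family, 9 of the 94 genes had 3 or fewer counts in every library, and 77 had at least 1 count in all 12.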
